A study of Mus musculus with 10 samples.

Results

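Homeostatic microglia genes are the genes by which resting microglia, the resident macrophages of the brain, are told from other macrophages. The 8 genes described here are Cx3cr1, P2ry12, Gpr34, Siglech, Tmem119, Olfml3, Sall1 and Aif1, and they were measured in sorted cells of blood-forming origin from the mouse midbrain. Every non-control probe whose gene name in the array files equals one of these names was taken, which gave 8 of the 35042 gene names and unnamed transcripts on the array, and 12 of its 55681 probes. Of these 12 probes, 11 passed the filter on dim probes, which asks for detection on 2 or more arrays, and they represent 7 genes. The exception was the single Sall1 probe.

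Microglia arise from yolk sac progenitors and maintain themselves largely without cells from bone marrow, and their resting programme depends on signals of the brain such as TGF-beta and ligands of the receptor Csf1r. Its surface genes include receptors for fractalkine (Cx3cr1), ADP (P2ry12) and lysophosphatidylserine (Gpr34), a sialic acid-binding lectin (Siglech) and a membrane protein used as a marker (Tmem119). Olfml3 encodes a secreted olfactomedin-like protein, Sall1 a transcription factor needed for microglial identity, and Aif1 the calcium-binding protein IBA1, which other macrophages also express. In the mouse, Siglech also marks plasmacytoid dendritic cells, and Cx3cr1 is expressed by circulating monocytes.

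All recipients had been treated with MPTP, a toxin for dopaminergic neurons. At 3 days from the last dose, lineage-negative haematopoietic stem and progenitor cells (HSPCs) from donor bone marrow were placed into one side of the midbrain. Cells were sorted 1 week later as RFP+YFP+ hybrids, in which a graft cell had fused with a recipient cell, or as RFP+ unfused graft cells. The R26Y hybrids came from recipients with a Cre-dependent YFP reporter that received HSPCs carrying Cre and RFP. The GFAP-Cre and FoxA2-Cre hybrids came from recipients expressing Cre under the promoter of an astrocyte gene or of a ventral midbrain transcription factor gene, grafted with HSPCs that carry the R26Y reporter. Unfused cells formed the remaining groups, one holding cells of R26Y recipients pooled with cells of GFAP-Cre recipients and one from FoxA2-Cre recipients. A graft cell that fuses with a Cre-negative cell in the Cre-driver recipients gains no YFP, so their RFP+ cells may include fused ones. Each of the 5 groups had 2 replicates, each a pool of samples from 2 mice, so p-values rest on the spread between pools. In the main fits that spread was estimated per probe over all 10 arrays, and not from the groups compared alone. limma also drew it towards the spread of all probes. No microglia were sorted as a group of their own, and fewer cells of a type and less RNA per cell cannot be told apart in such sorted pools.

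Levels are log2 signals scaled to each array's 75th percentile and are called log2 scaled signals below. The share of spots well above background was 64.3% to 84.1% on R26Y and GFAP-Cre hybrid arrays, against 82.8% to 86.7% on the pooled unfused arrays. It was 19.8% and 34.6% on the FoxA2-Cre hybrid arrays, against 34.8% and 49.2% on the FoxA2-Cre unfused arrays. The FoxA2-Cre arrays were on a slide of their own, where hybrids lay in row 1 and unfused cells in row 2, so slide and recipient set cannot be told apart, nor row and cell class on that slide. The array data of FoxA2-Cre unfused replicate 2 carry, in their deposited name, the sample number that the labels give to R26Y hybrid replicate 2, and they were used as the labels assign them. Without that array 655 probes passed in FoxA2-Cre hybrids, no member among them, and the log2 difference of the Cx3cr1 end probe was 2.23. The blood-lineage genes Ptprc and Csf1r were well above background on all 10 arrays. Ptprc, which encodes the pan-leukocyte antigen CD45, lay between -3.34 and -2.67. Csf1r, the receptor of the macrophage growth factors, lay between 0.48 and 2.08. Kit and Hba-a1 were not well above background on every FoxA2-Cre array. Also well above background on all 10 arrays were neuronal Th (-2.01 to -0.13), endothelial Kdr (-0.88 to 0.33) and oligodendrocyte Mog (-3.12 to -1.15). Such detection alone does not tell which cells were present.

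Probes of one gene did not always follow each other, so the bases that distinguish them are shown first, each as the last 30 bases of a 60-base probe in the direction the array files print it (mouse build mm9). Both Cx3cr1 probes lie on the minus strand of chromosome 9, the end probe A_55_P2007964 at chr9:119957811-119957870 and the inner probe A_52_P99810 at chr9:119959018-119959077. They start at bases 3669 and 2462 of the transcript the array files name for them. The array files do not say whether these stretches are coding or untranslated. Capitals mark AATAAA, the consensus polyadenylation signal.
Cx3cr1 end probe: attctgtcAATAAAcattggtttccttcca
Cx3cr1 inner probe: ggtctcatttgcaggcttacattgaaagtt
AATAAA occurs in 10.1% of the 55681 probes as printed and in 3.74% as its reverse complement. The 3 Siglech probes lie on the plus strand of chromosome 7, the repeat probe A_55_P2141013 at chr7:63034088-63034147, the neighbouring probe A_55_P2165790 at chr7:63033826-63033885 and the upstream probe A_55_P2141008 at chr7:63028608-63028667. Capitals mark a run of GAAA units.
Siglech repeat probe: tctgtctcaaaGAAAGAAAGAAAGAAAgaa
Siglech neighbouring probe: ctccaaagttgaagaggctttgacttagtt
Siglech upstream probe: ccctggtggattcctcccaacatttctgga
The motif GAAAGAAA occurs in 0.44% of all probes as printed and in 0.404% as its reverse complement, and in no other member probe on either strand.

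None of the 11 tested probes differed between hybrids and unfused cells past the threshold (limma, adjusted p under 0.05 over all 50000 probes tested) in any comparison. Over the 11 probes, 8 differences lay above 0 in R26Y hybrids, 7 in GFAP-Cre hybrids, 8 in FoxA2-Cre hybrids and 8 over all hybrids. The FoxA2-Cre count includes the inner Cx3cr1 probe and an Olfml3 probe, both below background on every FoxA2-Cre array. With the brightest probe speaking for each gene, 6 of 7 genes lay above 0 in R26Y hybrids (34.5% of all probes did), with a median log2 difference of 0.66 against -0.29 over all probes. In GFAP-Cre hybrids 6 of 7 lay above 0 (53.8% of all probes), with a median of 0.66 against 0.04 over all probes. In FoxA2-Cre hybrids 6 of 7 lay above 0 (65.9% of all probes), with a median of 0.85 against 0.43. Over all hybrids 6 of 7 lay above 0 (52.9% of all probes), with a median of 0.55 against 0.04. P2ry12 and Aif1 were well above background on no FoxA2-Cre unfused array, and Gpr34 on no FoxA2-Cre hybrid array. Their FoxA2-Cre differences enter the gene counts and medians as fitted, without a measured size. Siglech enters these gene counts by its repeat probe, whereas its other probes lay below 0 in each of the 4 comparisons. The first and second comparisons share the pooled unfused arrays and are not independent. Relative to the median of all probes, 4 to 7 of the 7 genes lay higher in each comparison under the 5 scalings tried, with 4 of 7 found for FoxA2-Cre hybrids after normexp background correction. The median of the 7 genes ranged over the scalings from 0.59 to 0.99 in R26Y hybrids, 0.59 to 0.72 in GFAP-Cre hybrids, 0.20 to 0.89 in FoxA2-Cre hybrids and 0.24 to 0.65 over all hybrids. The lowest FoxA2-Cre and all-hybrid medians came with the authors' deposited matrix, where the medians of all probes were 0.03 and 0.02.

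**Figure D1:**
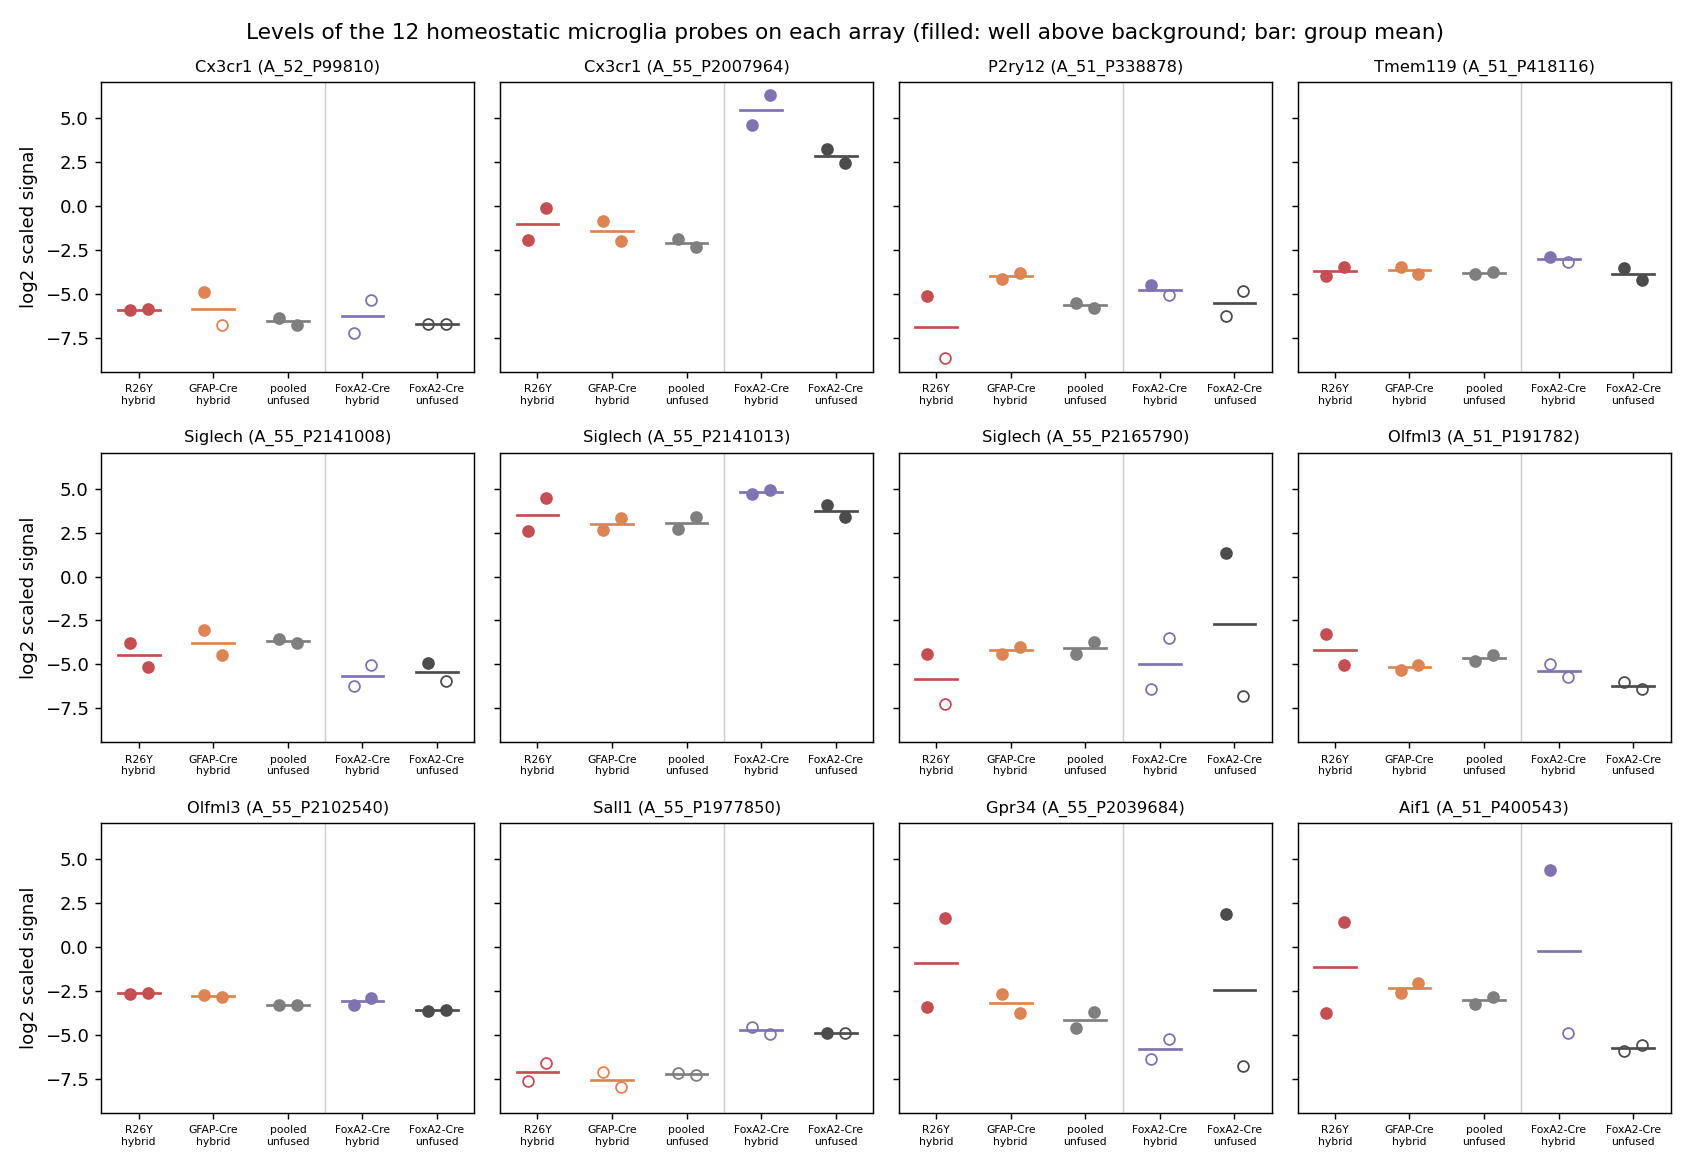
Log2 scaled signal (y axis) of each of the 12 probes on each of the 10 arrays, by group (x axis); filled points are well above background, open points are not, and bars are group means. Hybrid and unfused arrays overlap for most probes on the R26Y and GFAP-Cre slide, and the FoxA2-Cre groups, right of the grey line, hold most of the open points.

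The calls are to be read against the array as a whole. In R26Y hybrids and in GFAP-Cre hybrids, 0 of 11 member probes and 0% of all probes passed, and 0 of 11 had an unadjusted p under 0.05, against 1.56% and 1.96% of all probes. Without R26Y hybrid replicate 1, 3884 probes passed in R26Y hybrids, and no member was among them. In FoxA2-Cre hybrids 0 of 11 passed, against 0.344% of all probes, and 1 of 11 had an unadjusted p under 0.05, against 7.59%. In the pooled comparison of all hybrids, fitted with a term for recipient set, 0 of 11 and 0% of all probes passed, and 1 of 11 had an unadjusted p under 0.05, against 2.88%. The arrays of hybrids lay above those of their unfused cells without overlap for 3 member probes in R26Y hybrids, 3 in GFAP-Cre hybrids and 6 in FoxA2-Cre hybrids. The corresponding shares of all probes were 10%, 20.3% and 27.3%. The FoxA2-Cre count includes the dimmer Olfml3 probe, although it was below background on all 4 arrays. It also includes Aif1, well above background on 1 hybrid array and no unfused array, and Tmem119, well above background on 1 hybrid array. Hybrids lay below without overlap for 1 member probe in R26Y hybrids, 1 in GFAP-Cre hybrids and 0 in FoxA2-Cre hybrids, against 19.7%, 14.5% and 9.49% of all probes. When the FoxA2-Cre effect was set against the mean effect of the other hybrids, 0 of 11 passed, against 0.068% of all probes, and 0 of 11 had an unadjusted p under 0.05, against 5.27%.

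**Figure D2:**
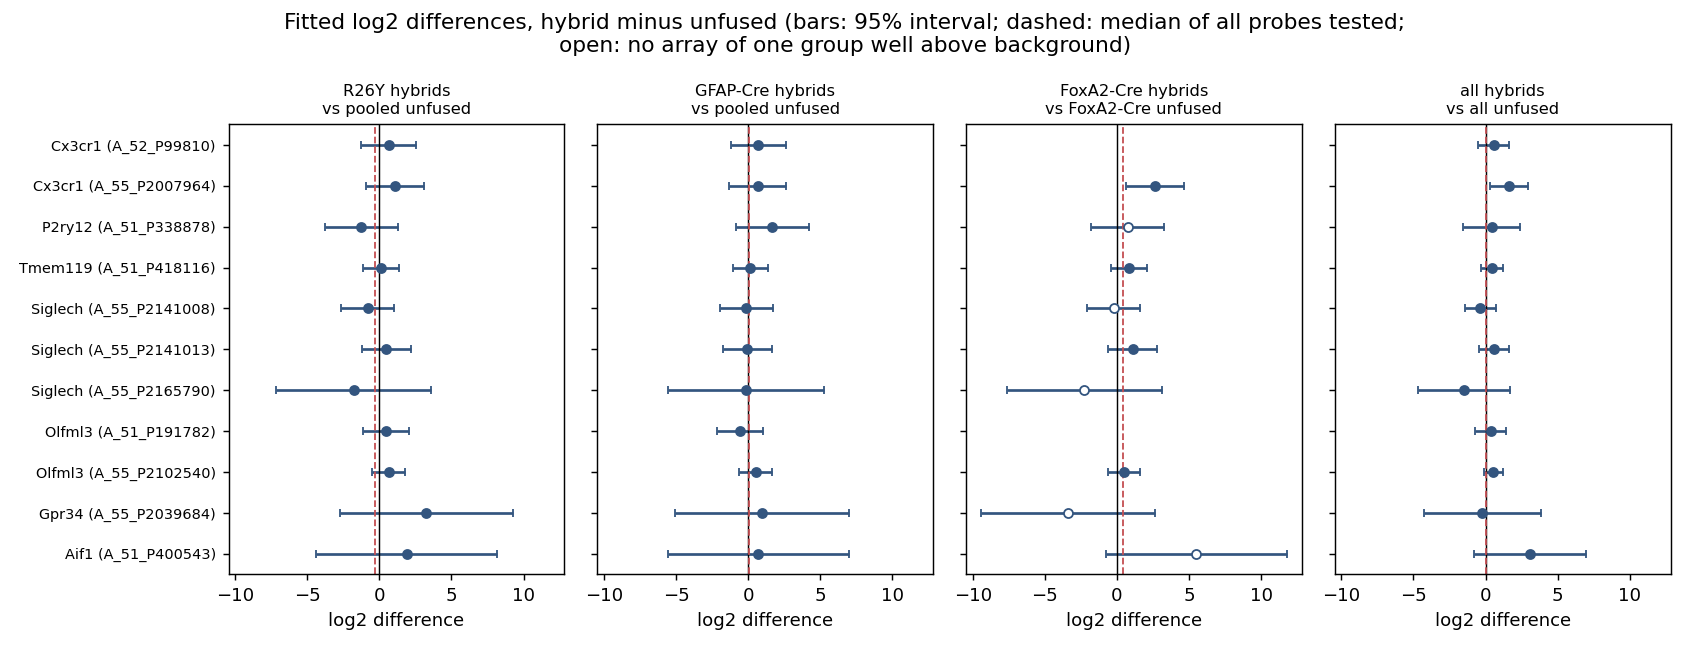
Fitted log2 differences (x axis) of the 11 tested probes (rows), hybrid minus unfused, with 95% intervals. The dashed line is the median of all probes tested. Open points have no array of one group well above background, so their size is not measured. Probes with no array well above background in either group are not drawn. The interval of the Cx3cr1 end probe lies above 0 in FoxA2-Cre hybrids (0.64 to 4.64) and in all hybrids (0.32 to 2.93), and the intervals of Gpr34 and Aif1 are wide.

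Among the receptors, Cx3cr1 had the smallest unadjusted p in the FoxA2-Cre comparison and over all hybrids. Its end probe read -1.93 and -0.10 in R26Y hybrids and -0.86 and -2.00 in GFAP-Cre hybrids, against -1.86 and -2.31 in pooled unfused cells. On the FoxA2-Cre slide it read 4.64 and 6.30 in hybrids, against 3.23 and 2.43 in unfused cells. FoxA2-Cre hybrids and unfused cells did not overlap, whereas both other hybrid groups overlapped with the pooled unfused cells. All 6 hybrid arrays lay above the unfused mean of their own set, as they did for 3.83% of all probes. The log2 difference was 2.64 ± 0.86 (SE, n = 2 each) in FoxA2-Cre hybrids (limma, unadjusted p 0.0159, adjusted p 0.548). It was 1.07 ± 0.86 in R26Y hybrids and 0.66 ± 0.86 in GFAP-Cre hybrids, and 1.62 ± 0.58 over all hybrids (unadjusted p 0.0196, adjusted p 1.00). Leaving out 1 array at a time gave 1.81 to 3.47 in FoxA2-Cre hybrids, 0.156 to 1.98 in R26Y hybrids, 0.0857 to 1.23 in GFAP-Cre hybrids and 1.18 to 1.95 over all hybrids. The lowest values of R26Y and GFAP-Cre hybrids were those without the brighter array of the pair. The FoxA2-Cre effect minus the mean of the other hybrid effects was 1.78 ± 1.14, with an interval of -0.87 to 4.42, and did not pass (limma, adjusted p 0.837).

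The inner Cx3cr1 probe gave another picture. It read -5.93 and -5.88 in R26Y hybrids and -4.92 and -6.79 in GFAP-Cre hybrids, against -6.35 and -6.78 in pooled unfused cells. It was below background on all 4 FoxA2-Cre arrays, so no fold is given there. R26Y hybrids lay above the pooled unfused cells without overlap, by 0.66 ± 0.83 on the log2 scale, and GFAP-Cre hybrids overlapped with them. Across the 10 arrays, after the mean of each recipient set was subtracted, the 2 Cx3cr1 probes had a Pearson r of 0.63. A probe of an unnamed transcript, TC1715571 at chr9:119957806-119957865, shares 55 bases with the end probe and followed it across the arrays (r 0.92). It read 4.52 and 6.22 in FoxA2-Cre hybrids, against 1.99 and 2.66 in FoxA2-Cre unfused cells, a log2 difference of 3.05 ± 0.74 (limma, unadjusted p 0.00344, adjusted p 0.304). As these probes share most of their bases, they are one stretch of transcript measured again rather than independent readings.

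**Figure D3:**
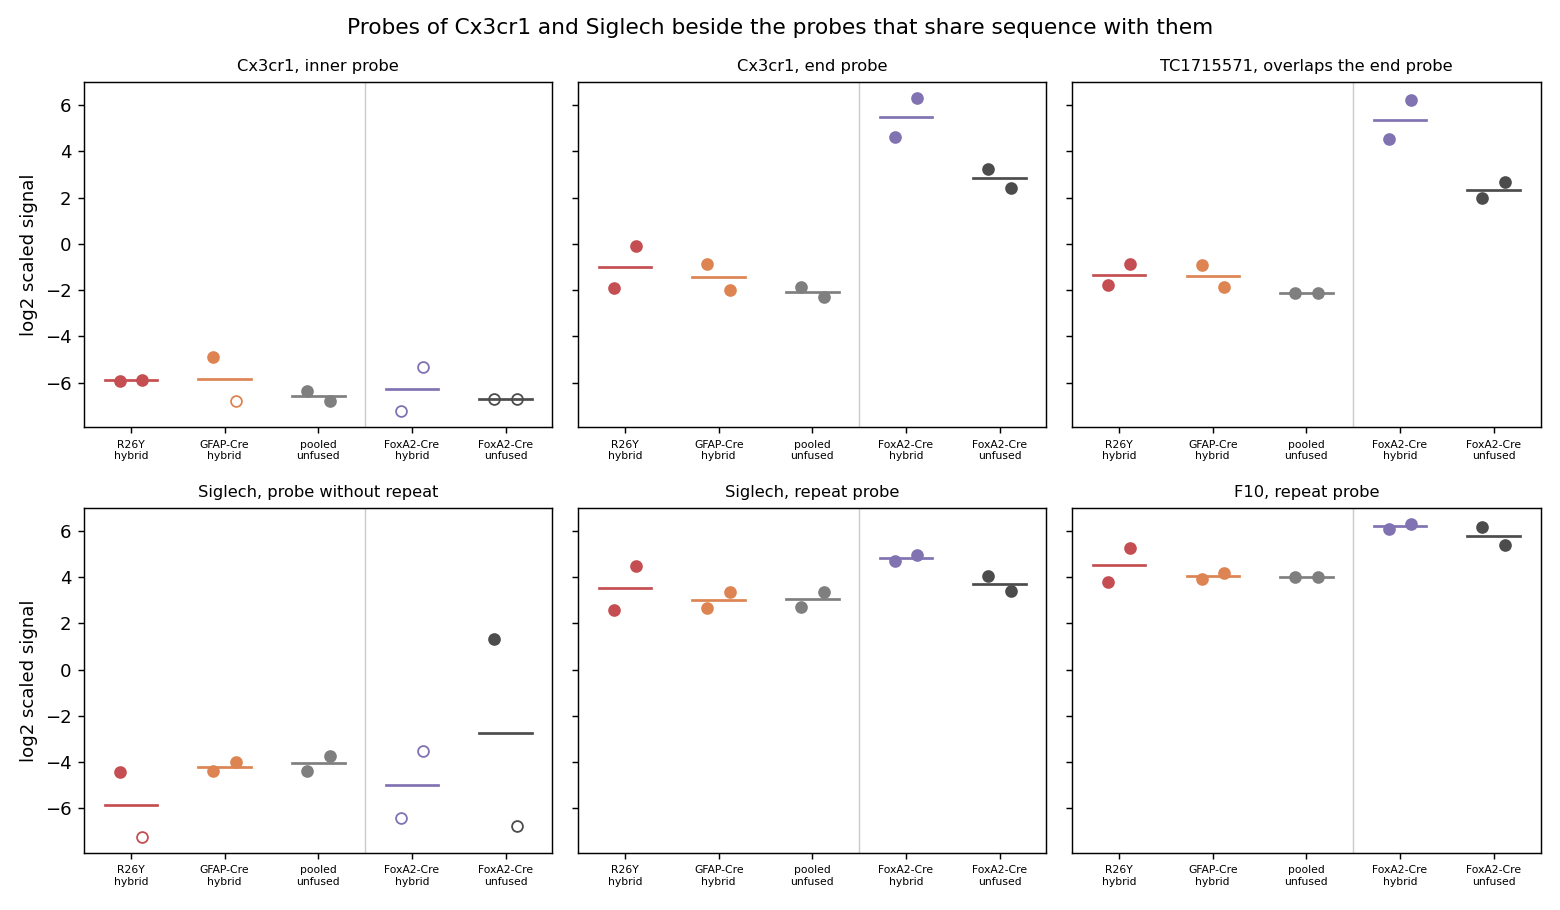
Log2 scaled signal (y axis) by group (x axis) of Cx3cr1 and Siglech probes, with the TC1715571 and F10 probes that share bases with them in the right column; filled points are well above background, open points are not, and bars are group means. The end probe of Cx3cr1 and TC1715571 run alike, the inner probe is not well above background on the FoxA2-Cre slide, and the Siglech repeat probe runs like F10.

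P2ry12, the ADP receptor that directs microglial processes to sites of injury, lay highest in GFAP-Cre hybrids on the R26Y and GFAP-Cre slide. Its probe (chr3:59020598-59020657, minus strand) read -5.11 and -8.68 in R26Y hybrids and -4.15 and -3.80 in GFAP-Cre hybrids, against -5.50 and -5.80 in pooled unfused cells. GFAP-Cre hybrids lay above both other groups without overlap, and the value of -8.68 was not well above background. GFAP-Cre hybrids exceeded the pooled unfused cells by 1.67 ± 1.09 on the log2 scale (limma, adjusted p 1.00). They exceeded R26Y hybrids by 2.92 ± 1.09 (unadjusted p 0.0282, adjusted p 1.00), a comparison in which 3.1% of all probes had an unadjusted p under 0.05 and 0% passed. Without R26Y hybrid replicate 2, the dimmer array of the pair, that log2 difference was 1.14. Without replicate 1 the lone R26Y array was the one not well above background, so only a bound of at least 5.81-fold can be given. The fit then gave an adjusted p of 0.0169 (limma), for which the lone array was assumed to vary like the other groups. On the FoxA2-Cre slide P2ry12 read -4.53 and -5.08 in hybrids, against -6.25 and -4.84 in unfused cells, and only the first of these arrays was well above background. Here and below, a fold against a group with no array well above background uses a floor for that group. The floor is, on each array, the higher of the probe's own signal and the lowest signal well above background. Such a fold is a bound only if all arrays of the brighter group were well above background. Otherwise it is nominal, as a signal not well above background enters the brighter mean. P2ry12 was nominally 1.53-fold higher in FoxA2-Cre hybrids, measured on 1 of 2 hybrid arrays (limma, adjusted p 0.826).

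Gpr34, the lysophosphatidylserine receptor, differed widely between the replicates of R26Y hybrids and between those of FoxA2-Cre unfused cells. Its probe (chrX:13217863-13217922, plus strand) read -3.44 and 1.63 in R26Y hybrids and -2.65 and -3.77 in GFAP-Cre hybrids, against -4.63 and -3.70 in pooled unfused cells. On the FoxA2-Cre slide it read -6.36 and -5.25 in hybrids, neither well above background, against 1.91 and -6.76 in unfused cells, of which the first was. The R26Y hybrids lay above the pooled unfused cells without overlap, at a log2 difference of 3.27 ± 2.61 (limma, adjusted p 0.999). In GFAP-Cre hybrids the difference was 0.95 ± 2.61. FoxA2-Cre hybrids were nominally 3.53-fold lower than their unfused cells, with the unfused level measured on 1 of 2 arrays (limma, adjusted p 0.741). Without that array no FoxA2-Cre array had Gpr34 well above background, and without R26Y hybrid replicate 2 the R26Y log2 difference was 0.73.

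For Siglech, the lectin that signals through the adaptor Tyrobp, the 3 probes disagreed in direction. The repeat probe read 2.58 and 4.47 in R26Y hybrids and 2.65 and 3.35 in GFAP-Cre hybrids, against 2.71 and 3.38 in pooled unfused cells. It read 4.70 and 4.95 in FoxA2-Cre hybrids, against 4.05 and 3.40 in FoxA2-Cre unfused cells, with no overlap and a log2 difference of 1.10 ± 0.74 (limma, adjusted p 0.721). This probe shares 22 bases with a probe of F10, a coagulation factor gene, and 21 with a probe of Chat, a gene of acetylcholine synthesis. Its values followed theirs across the 10 arrays with r of 0.91 and 0.78 after the set means were subtracted, and how much of its signal comes from Siglech was not tested. The neighbouring probe read -4.43 and -7.24 in R26Y hybrids and -4.41 and -3.99 in GFAP-Cre hybrids, against -4.39 and -3.73 in pooled unfused cells. The upstream probe read -3.77 and -5.18 in R26Y hybrids and -3.06 and -4.49 in GFAP-Cre hybrids, against -3.55 and -3.77 in pooled unfused cells. Neither was well above background on a FoxA2-Cre hybrid array, and each was so on 1 FoxA2-Cre unfused array, the neighbouring probe at 1.33 and the upstream probe at -4.93. The neighbouring and upstream probes, which lack the repeat, ran together (r 0.67), and the repeat probe had an r of -0.20 with the neighbouring probe and -0.53 with the upstream one. Over all hybrids the log2 difference was 0.60 ± 0.47 for the repeat probe, -1.51 ± 1.42 for the neighbouring probe and -0.36 ± 0.49 for the upstream one. The value of the neighbouring probe rests on FoxA2-Cre unfused replicate 1, without which it was -0.0377. That of the upstream probe ranged from -0.59 to -0.16 when 1 array at a time was left out.

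Tmem119, a membrane protein of unsettled function, varied little between groups on the R26Y and GFAP-Cre slide. Its probe (chr5:114243962-114244021, minus strand) read -3.98 and -3.47 in R26Y hybrids and -3.46 and -3.85 in GFAP-Cre hybrids, against -3.87 and -3.77 in pooled unfused cells. All 3 groups overlapped, and the log2 differences were 0.10 ± 0.54 and 0.16 ± 0.54. The 95% intervals, -1.14 to 1.33 and -1.07 to 1.40, leave room for a change of more than a log2 unit either way. On the FoxA2-Cre slide it read -2.88 and -3.17 in hybrids, against -3.55 and -4.19 in unfused cells. The groups did not overlap there, the value of -3.17 was not well above background, and the difference was 0.85 ± 0.54 (limma, adjusted p 0.715).

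Olfml3 held the one probe whose hybrid arrays lay above the unfused arrays of their own set, without overlap, on both slides. This probe (A_55_P2102540, chr3:103540414-103540473, minus strand) read -2.66 and -2.63 in R26Y hybrids and -2.73 and -2.83 in GFAP-Cre hybrids, against -3.31 and -3.29 in pooled unfused cells. It read -3.31 and -2.89 in FoxA2-Cre hybrids, against -3.62 and -3.57 in FoxA2-Cre unfused cells. The same arrangement held for 1.1% of all probes. The log2 difference was 0.66 ± 0.49 in R26Y hybrids, 0.52 ± 0.49 in GFAP-Cre hybrids and 0.50 ± 0.49 in FoxA2-Cre hybrids. Over all hybrids it was 0.55 ± 0.29, with an interval of -0.09 to 1.19 (limma, unadjusted p 0.085, adjusted p 1.00). The other Olfml3 probe (A_51_P191782, chr3:103539590-103539649, minus strand) did not follow it (r 0.19). It read -3.27 and -5.06 in R26Y hybrids and -5.30 and -5.05 in GFAP-Cre hybrids, against -4.79 and -4.45 in pooled unfused cells. GFAP-Cre hybrids lay below the pooled unfused cells without overlap, by a log2 difference of -0.56 ± 0.69, and the probe was below background on all 4 FoxA2-Cre arrays.

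Aif1, whose product IBA1 bundles actin in microglia and other macrophages, differed widely between replicates in R26Y and in FoxA2-Cre hybrids. Its probe (chr17:35307959-35308018, minus strand) read -3.74 and 1.43 in R26Y hybrids and -2.62 and -2.03 in GFAP-Cre hybrids, against -3.24 and -2.85 in pooled unfused cells. GFAP-Cre hybrids lay above the pooled unfused cells without overlap, by 0.72 ± 2.71 on the log2 scale. On the FoxA2-Cre slide it read 4.39 and -4.87 in hybrids, of which only the first was well above background, against -5.91 and -5.58 in unfused cells, of which neither was. FoxA2-Cre hybrids were nominally 35.8-fold higher, a value that rests on 1 array and is not a bound (limma, unadjusted p 0.0771, adjusted p 0.672). Without that array no FoxA2-Cre array had Aif1 well above background, and without R26Y hybrid replicate 2 the R26Y difference of 1.89 ± 2.71 became -0.69. Over all hybrids the log2 difference was 3.1 ± 1.74, with 5 of 6 hybrid arrays above the unfused mean of their set (adjusted p 1.00). Leaving out the bright FoxA2-Cre hybrid array gave 1.16 and leaving out the dim one 4.25, and the value includes FoxA2-Cre signals not well above background. The Sall1 probe (chr8:91551278-91551337, minus strand) was well above background on 1 array, FoxA2-Cre unfused replicate 1, and on none of the 6 hybrid arrays, and it was not tested.

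For the comparisons between groups, the fit took the spread of a probe from the replicate gaps of all 5 groups together. A wide gap in any group therefore widened the error of that probe in each of these comparisons. Aif1 had an SE of 2.71 in GFAP-Cre hybrids, although its gap was 0.59 there and 0.39 in pooled unfused cells. Over all probes tested the median gap was 1.14 log2 units in R26Y hybrids, 0.56 in GFAP-Cre hybrids and 1.02 in FoxA2-Cre hybrids, against 0.37 in pooled unfused cells and 0.92 in FoxA2-Cre unfused cells. The Aif1 gap was 9.26 units in FoxA2-Cre hybrids, a size reached by 0.658% of probes there. In FoxA2-Cre unfused cells the gap was 8.67 for Gpr34 and 8.11 for the neighbouring Siglech probe, reached by 0.72% and 1.08% of probes. In R26Y hybrids Aif1 and Gpr34 had gaps of 5.17 and 5.07, and 4.69% of probes there had a gap of at least 5 units. In both cases the second R26Y array was the brighter, although fewer of its spots were well above background (64.3%, against 84.1% on the first). No member gap exceeded 2 units in GFAP-Cre hybrids or pooled unfused cells, where 0.286% and 0.022% of all probes had a gap of at least 5.

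**Figure D4:**
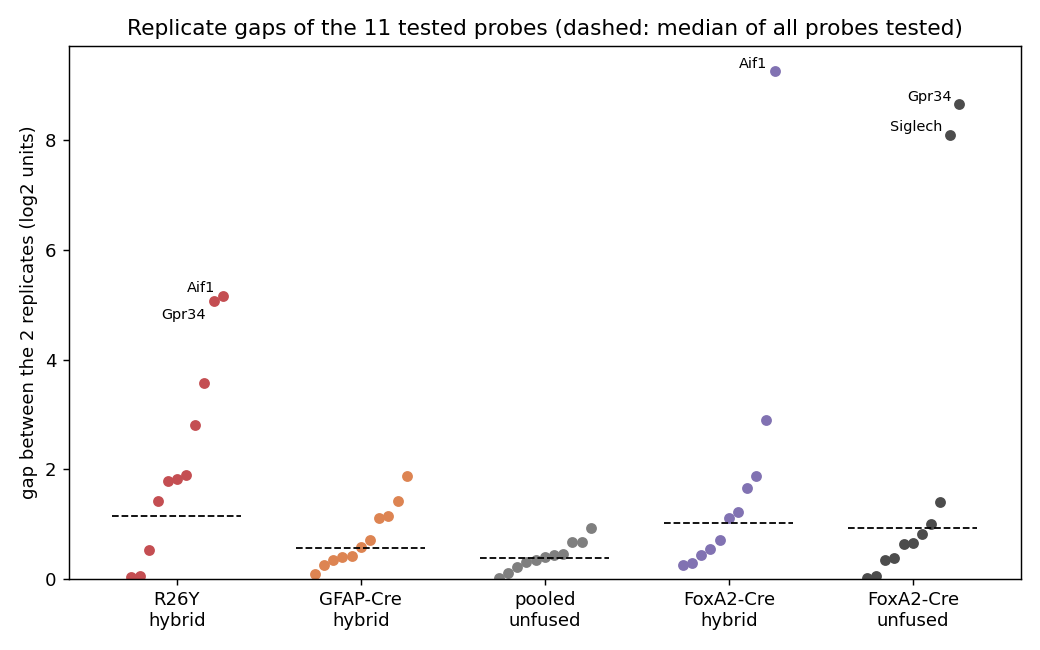
Gap between the replicates of each group (y axis, log2 units) for the 11 tested probes, with members at 5 units or more named; dashed lines are the median gap of all probes tested. Gaps of 5 units or more occurred for Aif1 and Gpr34 in R26Y hybrids, Aif1 in FoxA2-Cre hybrids, and Gpr34 and a Siglech probe in FoxA2-Cre unfused cells.

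For member probes well above background on at least 8 arrays, the genes whose levels ran most alike were sought over the 10 arrays. Each recipient set's mean was subtracted first. Candidates were all tested probes with a gene symbol, which needed to be well above background on only 2 arrays or more. For Olfml3 the most alike were Cd84 (r 0.97), Cd53 (0.93) and Mmp14 (0.93). For Cx3cr1, by its end probe, they were Fhl3 (0.98), Krtap26-1 (0.97) and Gas1 (0.97), and for Tmem119 they were B930054O08 (0.99), Mapk4 (0.98) and Panx2 (0.96). For Siglech, by its repeat probe, they were H4c9 (0.98), Mettl7a2 (0.97) and Map6d1 (0.97). These correlations describe 10 arrays that share slides and depth.

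Other genes of the microglial programme gave no common direction across the hybrid groups. Of 28 further homeostatic genes 27 were tested and 0 passed in any comparison. Above 0 lay 11 of 27 in R26Y hybrids, 20 of 27 in GFAP-Cre hybrids and 15 of 27 in FoxA2-Cre hybrids. The shares of all probes were 34.5%, 53.8% and 65.9%. Over all hybrids 11 of 27 lay above 0, with a median log2 difference of -0.08, against 0.04 over all probes. At an unadjusted p under 0.05 there were 2 of the 27 genes over all hybrids, Trem2 and Irf8, against 2.88% of all probes. Trem2, a lipid-sensing receptor of microglia, read -3.07 and 3.03 in R26Y hybrids and -0.88 and -2.33 in GFAP-Cre hybrids, against -2.79 and -3.67 in pooled unfused cells. It read 4.60 and 6.27 in FoxA2-Cre hybrids, against -4.36 and 3.20 in FoxA2-Cre unfused cells, and the log2 difference over all hybrids was 3.96 ± 1.63 (limma, unadjusted p 0.0363, adjusted p 1.00). Irf8, a transcription factor of the monocyte and microglial lineage, ran the other way, at -1.16 ± 0.49 over all hybrids (limma, unadjusted p 0.04). Irf8 was not well above background on either FoxA2-Cre hybrid array or on FoxA2-Cre unfused replicate 2. As fitted over all hybrids, Crybb1 lay at 0.59 ± 0.35 and Rnase4 at 3.40 ± 2.23. Crybb1 was not well above background on replicate 2 of either FoxA2-Cre group. On the FoxA2-Cre slide Rnase4 was well above background on hybrid replicate 2 alone, so the size of its difference is not measured.

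Of the 13 ligands and partners of the microglial receptors, which include fractalkine, the Csf1r ligands and TGF-beta signalling genes, 0 passed in any comparison. Their median over all hybrids was 0.27, with 9 of 13 above 0 and 0 at an unadjusted p under 0.05. Ctss, the protease that releases fractalkine from neurons, lay at 3.86 ± 1.87 (SE) over all hybrids (limma, unadjusted p 0.0667). It read -2.32 and 1.92 in R26Y hybrids and 0.96 and -0.64 in GFAP-Cre hybrids, against -1.19 and -3.17 in pooled unfused cells. It read 4.24 and 4.78 in FoxA2-Cre hybrids, against 3.76 and -6.98 in FoxA2-Cre unfused cells, the last not well above background. Smad2 (0.99 ± 0.90), Il34 (-0.41 ± 0.43) and Adam17 (0.51 ± 0.65) lay nearer to 0 as fitted. Smad2 and Adam17 were not well above background on any FoxA2-Cre array, nor was Il34 on either FoxA2-Cre hybrid array. In no group was Adam17 well above background on both arrays. The sizes of these differences are therefore not measured.

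Among the marker lists of other cells such a sort could hold, the neutrophil list had the median farthest from 0 over all hybrids. Their mean level lay between -5.06 and -3.40 on R26Y and GFAP-Cre hybrid arrays, against -3.14 to -2.42 on the pooled unfused arrays. It lay between -5.05 and -4.39 on FoxA2-Cre hybrid arrays, against -2.33 to -2.10 on FoxA2-Cre unfused arrays. Of 14 tested neutrophil genes 1 passed, in FoxA2-Cre hybrids. This was Mpo, the neutrophil myeloperoxidase, at -6.77 and -5.66 in FoxA2-Cre hybrids, neither well above background, against 1.79 and 1.56 in FoxA2-Cre unfused cells. It was at least 60.6-fold lower in the hybrids (limma, adjusted p 0.0302). That call rests on the spread of all 10 arrays, since 0 probes passed with the 4 FoxA2-Cre arrays alone. Over all hybrids 2 of 14 neutrophil genes lay above 0, with a median log2 difference of -1.21. The part of this shift in the values of the microglia genes was not tested.

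The remaining marker lists had 0 genes past the threshold in every comparison. Of the monocyte and macrophage genes 5 of 14 lay above 0 over all hybrids, with a median of -0.20. Their mean level lay between -4.25 and -2.73 on R26Y and GFAP-Cre hybrid arrays, against -2.72 to -2.31 on the pooled unfused arrays. It lay between -3.46 and -2.61 on FoxA2-Cre hybrid arrays, against -2.47 to -2.38 on FoxA2-Cre unfused arrays, while 7 of 14 genes lay above 0 there and their median was 0.00693. Fn1, the fibronectin gene, had the smallest unadjusted p of the list, at -3.54 ± 1.32 (SE) over all hybrids (limma, unadjusted p 0.0232). Beside it were Lyve1 at 1.03 ± 0.48, Ly6c1 at -2.35 ± 1.55 and F13a1 at -2.13 ± 1.43. Neither Fn1 nor F13a1 was well above background on R26Y hybrid replicate 2 or on a FoxA2-Cre hybrid array. Lyve1 was well above background on no unfused array. The sizes of the Fn1, F13a1 and Lyve1 differences are therefore not measured. Of the plasmacytoid dendritic cell genes 7 of 13 lay above 0, with a median of 0.14. Ccr9, a chemokine receptor of those cells, lay at -2.28 ± 1.24 and was not well above background on either FoxA2-Cre hybrid array. HSPC genes had a median of 0.47 (8 of 11 above 0), erythroid genes 0.63 (6 of 8), neuronal genes 0.14 (6 of 10), oligodendrocyte genes -0.04 (4 of 9), and endothelial and pericyte genes -0.05 (3 of 8). Over all probes the median was 0.04, with 52.9% above 0. On the FoxA2-Cre hybrid arrays only 4 to 6 of 11 HSPC genes and 1 to 2 of 8 erythroid genes were well above background. Astrocyte genes had a median of -0.12 (2 of 8), and Gfap lay at -0.995 ± 0.471 (unadjusted p 0.0612) and was not well above background on any FoxA2-Cre array.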

How the data were processed

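RNA of sorted cells was amplified and 500 ng of cDNA hybridised to 1-colour Agilent mouse 8x60K arrays, per the labels' protocols. The authors deposited the output of Agilent Feature Extraction 10.7.3.1 for each array, whose signal columns hold intensities according to the deposited files. Per the file headers, Feature Extraction had subtracted background from the processed signal; nothing had been scaled between arrays. The deposited files also hold 0 or 1 marks (other values) for spots well above background or non-uniform, per the file headers. The authors' deposited matrix holds log2 values of unstated origin and served as an alternative; its column median is 7.38 or 7.39 on each array of one slide and 6.26 on each of the other, and its scale is log2.

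Levels are the log2 processed signal less each array's 75th percentile over the 9481 non-control spots well above background on all arrays. Non-uniform spots were dropped before probe spots were averaged. Probes well above background on at least 2 arrays were tested, 50000 of 55681. The number of arrays limits the precision, since each group has 2. limma 3.58.1 in R 4.3.3 fitted 5 group means (5 residual degrees of freedom), and a second model set hybrids against unfused cells with a recipient set term (7 residual degrees of freedom). Tests are two-sided, with Benjamini-Hochberg adjustment over all probes. The fit was tested on simulated data. Python 3.11.15 computed the summaries.

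Gene names are those of the array files. RefSeq accessions matched 27428 probes to a current symbol, and 2788 probes were renamed. Coordinates are those of the array files (mm9), and probes were not remapped. Every member probe is reported, and the brightest probe speaks for its gene. From each other list, genes past the threshold in any comparison are named, and otherwise up to 4 with the smallest unadjusted p over all hybrids; Mpo, S100a9, Kit, Ptprc, Gfap, Th, Hba-a1, Pecam1 and Csf1r could always be given. The members and lists were chosen with earlier results of these data known. Replicate numbers do not pair samples: the correlation of deviations between same-numbered samples lay between -0.08 and 0.06. Alternatives were normexp (offset 50), quantile normalisation, the percentile over all spots, the authors' matrix, a filter at 5 arrays, no filter, 1 probe per gene, the replicate number or slide row as a block, only the arrays of a recipient set, no recipient set term, and leaving out each array.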

Additional observations from a re-analysis of the deposited data

Results flagged for a closer look

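Gpr34 was singled out because the hybrid effects ran in opposite directions between recipients. Both R26Y hybrid arrays lay above the mean of the pooled unfused cells (log2 difference 3.27), and both FoxA2-Cre hybrid arrays lay below the mean of their unfused cells (fitted value -3.38). Neither FoxA2-Cre hybrid array was well above background, nor was FoxA2-Cre unfused replicate 2. That effect is known only as a nominal fold, 3.53-fold lower, and every value below that includes it has no measured size. The FoxA2-Cre effect minus the R26Y effect was -6.65 as fitted, and the FoxA2-Cre effect minus the GFAP-Cre effect (0.95) was -4.33. These pairwise differences were not tested. The FoxA2-Cre effect minus the mean of the other effects was -5.49 ± 3.45 (limma, unadjusted p 0.15, adjusted p 0.837). The FoxA2-Cre value rests on unfused replicate 1, the only FoxA2-Cre array with Gpr34 well above background, and without it the FoxA2-Cre effect is not measured.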

How the results depend on the processing

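The 48 member results gave 954 values over the alternatives. No member result passed the threshold except P2ry12 between GFAP-Cre and R26Y hybrids without R26Y hybrid replicate 1 (limma, adjusted p 0.0169), where the lone R26Y array was not well above background and its spread was taken from the other groups; outside the left-out arrays the smallest adjusted p was 0.40. The sign held throughout for 28 of 48. It turned with normexp for P2ry12 in R26Y hybrids (0.0936), for the upstream Siglech probe in GFAP-Cre hybrids (0.0672), FoxA2-Cre hybrids (0.69) and all hybrids (0.22), and for Gpr34 in all hybrids (0.31). With quantile normalisation it turned in all hybrids for Gpr34 (0.37) and the dimmer Olfml3 probe (-0.22). With the authors' matrix it turned for the upstream Siglech probe in GFAP-Cre hybrids (0.0472) and the repeat probe in R26Y hybrids (-0.0788). With only R26Y and GFAP-Cre recipients it turned in all hybrids for Gpr34 (2.11) and the dimmer Olfml3 probe (-0.0492). With the slide row as a block it turned for the repeat Siglech probe in GFAP-Cre hybrids (0.26), the dimmer Olfml3 probe in R26Y hybrids (-0.0511) and the Cx3cr1 end probe in the difference between recipient sets (-0.45). The cause was not tested.

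Values without 1 array are as fitted, also where the signals left were not well above background, and then have no measured size. Leaving out each array moved the log2 difference across 0 in R26Y hybrids for P2ry12 (-3.03 to 0.54), Tmem119 (-0.16 to 0.35), the repeat Siglech probe (-0.46 to 1.43), the dimmer Olfml3 probe (-0.43 to 1.35) and Aif1 (-0.69 to 4.47). It did so in GFAP-Cre hybrids for the inner Cx3cr1 probe (-0.22 to 1.65), Tmem119 (-0.0319 to 0.36) and the upstream, repeat and neighbouring Siglech probes (-0.83 to 0.60, -0.40 to 0.31 and -0.47 to 0.19). In FoxA2-Cre hybrids it did so for the upstream and neighbouring Siglech probes (-0.83 to 0.39 and -6.30 to 1.81) and Gpr34 (-7.71 to 0.95), and over all hybrids for Gpr34 (-1.16 to 1.72). Between GFAP-Cre and R26Y hybrids the ranges were 1.14 to 4.71 for P2ry12, -4.85 to 0.22 for Gpr34 and -3.76 to 1.41 for Aif1, and for Aif1 in the difference between recipient sets -0.43 to 8.83.

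Over all probes, the 172 calls in FoxA2-Cre hybrids (18 higher, 154 lower) became 105 with the replicate number as a block, 0 with the slide row as a block and 0 with the FoxA2-Cre arrays alone, and 68 to 655 without 1 array. The higher calls made up 10.5% of the 172 and 23.5% with the authors' matrix. Without 1 array there were 0 to 3884 calls in R26Y hybrids and 0 to 3664 between GFAP-Cre and R26Y hybrids, both high counts without R26Y hybrid replicate 1. The 34 calls for the difference between recipient sets became 5 with quantile normalisation, 64 with the authors' matrix, 0 with the replicate block or the slide row, and 0 to 135 without 1 array. The replicate block changed no other call. The median of all probes in R26Y hybrids was -0.29 and moved to 0.02 with normexp; in FoxA2-Cre hybrids it was 0.43, 0.74 with normexp and 0.03 with the authors' matrix. Signal over background limits the FoxA2-Cre comparison, where 3 and 6 of 12 member probes were well above background on the hybrid arrays, against 4 and 8 on the unfused arrays.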
